A study of Homo sapiens with 2 samples.

Results

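Chromosome 19 carries the largest collection of zinc finger genes in the human genome, and this account covers those that THP-1 cells expressed. THP-1 is a human acute monocytic leukaemia line. Poly(A) RNA was sequenced from 1 library of Ara-C-resistant THP-1 cells and 1 library of untreated parental THP-1 cells. Ara-C is cytarabine, a nucleoside analogue that blocks DNA synthesis. The resistant cells came from stepwise exposure that began at 5 nM and ended at 10 µM, and the labels call cells resistant once they doubled as fast as untreated ones. The labels do not say whether the resistant line was 1 clone or a mixed population. Every value below is therefore a difference between 2 libraries, with no replicate, no spread between cultures and no test between conditions.

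The members were the protein-coding rows of chromosome 19 whose symbol is ZNF or ZFP followed by a number, with a level of at least 0.5 FPKM (fragments per transcript length and sequencing depth) in either library. Of 239 such rows, 202 reached that level, out of 30856 gene rows in the table. The members were thus chosen by their levels in the same 2 libraries, so their levels and ratios are a description. The symbol rule also takes in ZFP36, which encodes a protein of another zinc finger type.

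Most of these genes encode proteins with a row of C2H2 fingers, each of which contacts a few bases of DNA. Many also carry a KRAB domain, which binds the corepressor TRIM28. TRIM28 brings the methyltransferase SETDB1 and heterochromatin proteins to the bound site, and in many cells this silences transposable elements. The genes arose by repeated tandem duplication, so that close relatives lie side by side on the chromosome. In the deposited KEGG orthology column, 155 of the 202 members carry the entry for KRAB-domain zinc finger proteins and 47 do not. Those 47 carry another entry, as ZNF274 and ZNF446 do, or none. Lack of this entry does not show that a protein lacks the domain.

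The libraries held 58285463 counts in resistant cells and 57434972 in parental cells. All 12 monocytic markers examined reached 1 FPKM in at least 1 library, and none of the erythroid, T cell, B cell, epithelial and fibroblast markers did. The monocytic markers differed among themselves, with 5 above and 7 below equal levels by the counting interval explained further on. LYZ stood at 95.77 FPKM in resistant cells and 225.01 FPKM in parental cells, and CTSG at 305.75 FPKM in resistant cells and 155.21 FPKM in parental cells. ELANE and CTSG made up most of the summed level of 1059.37 FPKM in resistant cells and 925.51 FPKM in parental cells. Their part in the results below was not tested. In bulk RNA, fewer cells that express a gene and less RNA of it per cell cannot be told apart.

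The members fell into 15 runs along the chromosome, where a run ended at a gap of at least 1 Mb between neighbouring starts. The 8 runs with at least 5 members are called clusters here and are named by their first and last zinc finger gene. They held 189 members, and 13 members lay outside them. In order along the chromosome (GRCh38), ZNF554 to ZNF77 spans chr19:2819868-2944971 with 5 members. ZNF557 to ZNF846 spans chr19:7069703-9793180 with 13 members. ZNF653 to ZNF791 spans chr19:11483427-12640098 with 19 members. ZNF101 to ZNF254 spans chr19:19668796-24129968 with 27 members and lies next to the centromere on the short arm. On the long arm, ZNF565 to ZNF573 spans chr19:36182276-37817300 with 19 members. ZNF575 to ZNF296 spans chr19:43525497-45076587 with 20 members. ZNF175 to ZNF331 spans chr19:51571283-53580269 with 33 members. ZNF628 to ZNF446 spans chr19:55476617-58481230, near the end of the long arm, with 53 members.

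The clusters differed in a short promoter element. RefSeq promoters (GRCh38.p14), each 300 bases long from 250 before to 50 after the first listed start of a gene, were matched to 179 members by symbol and strand, and 23 members had no match. Among the 52 different 9-base words found on the gene strand in at least 15 of these promoters, TCCAATCAG ranked first by its share among members relative to its share among all promoters. It contains CCAAT, the core of the CCAAT box, a promoter element commonly bound by the factor NF-Y. The word was chosen after the sequences were seen. It occurred on either strand in 42 of 179 member promoters (23.5%). It occurred in 1 of 556 promoters of other expressed protein-coding genes of chromosome 19 (0.18%), in 12 of 177 promoters of expressed zinc finger genes of other chromosomes (6.78%) and in 241 of all 27305 promoters (0.883%).

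All 42 promoters with the 9-base element belonged to 3 clusters of the short arm. The element was in 4 of 5 promoters of ZNF554 to ZNF77, in 15 of 18 of ZNF653 to ZNF791 and in 23 of 23 of ZNF101 to ZNF254. It was in none of the 122 promoters of the other 5 clusters, which include ZNF557 to ZNF846 on the same arm, and in none of the 11 promoters outside the clusters. The promoters without it in the element-rich clusters were those of ZNF554, ZNF653, ZNF44 and ZNF799. Taking any listed start of a gene instead of the first, as an alternative added after the data were seen, gave the same 42 of 179 genes. The element began between 233 and 30 bases before the start, at a median of 65.5 bases. It lay on the gene strand in 41 promoters. The word was picked by its share on that strand, so its orientation is partly set by that choice.

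The windows of 60 bases below show how the element sits in each of the clusters that hold it, for genes whose expression is described further on. Capitals mark the 9-base element, and each sequence reads in the direction of the gene. ZNF555 (chr19:2841356-2841415, plus strand) and ZNF77 (chr19:2945133-2945192, minus strand) come from ZNF554 to ZNF77.
ZNF555: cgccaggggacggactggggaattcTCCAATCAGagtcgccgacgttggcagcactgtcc
ZNF77: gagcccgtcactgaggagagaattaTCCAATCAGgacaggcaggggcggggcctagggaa
ZNF700 (chr19:11925017-11925076, plus strand), ZNF20 (chr19:12140380-12140439, minus strand) and ZNF564 (chr19:12551502-12551561, minus strand) come from ZNF653 to ZNF791.
ZNF700: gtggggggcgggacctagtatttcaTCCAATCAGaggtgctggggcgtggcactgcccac
ZNF20: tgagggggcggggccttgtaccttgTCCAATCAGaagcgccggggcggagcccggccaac
ZNF564: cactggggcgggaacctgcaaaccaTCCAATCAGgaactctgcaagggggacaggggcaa
ZNF93 (chr19:19900836-19900895, plus strand), ZNF43 (chr19:21836236-21836295, minus strand), ZNF257 (chr19:22052406-22052465, plus strand), ZNF723 (chr19:22832211-22832270, plus strand) and ZNF91 (chr19:23395496-23395555, minus strand) come from ZNF101 to ZNF254.
ZNF93: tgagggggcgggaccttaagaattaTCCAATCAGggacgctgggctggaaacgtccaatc
ZNF43: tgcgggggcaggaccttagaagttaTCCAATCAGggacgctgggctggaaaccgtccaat
ZNF257: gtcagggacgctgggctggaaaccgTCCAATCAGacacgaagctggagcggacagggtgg
ZNF723: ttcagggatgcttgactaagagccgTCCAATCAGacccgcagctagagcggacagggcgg
ZNF91: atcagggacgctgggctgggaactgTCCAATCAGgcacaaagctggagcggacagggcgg
The bases around the element resemble each other between several of these genes, and tandem copies are not independent examples.

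**Figure D1:**
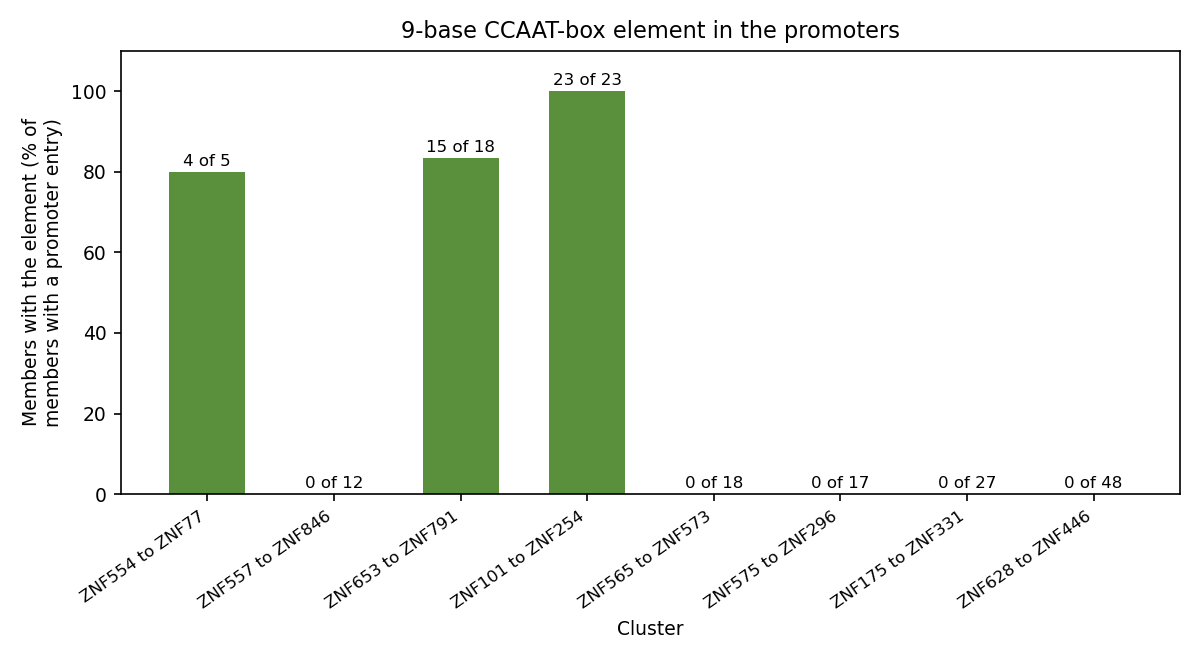
Share of members (vertical axis, percent of members with a RefSeq promoter entry) whose promoter holds the 9-base element, for the 8 clusters in order along chromosome 19. The bars stand at 4 of 5, 15 of 18 and 23 of 23 promoters in 3 clusters and at 0 in the other 5.

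Other promoter features were less tied to the members. CCAAT alone was in 54.7% of member promoters, against 39.2% for the other genes of chromosome 19, 44.1% for zinc finger genes of other chromosomes and 35.7% of all promoters; it is part of the 9-base element. GGGCGG, a binding motif of SP1-type factors, was in 66.5% of member promoters, against 76.3%, 63.8% and 44.6% of those same sets. TATAAA, the TATA box core, was in 2.23% of member promoters, against 5.76%, 3.95% and 11.95%. All were searched on both strands. Member promoters held a median of 20 CpG dinucleotides, against 27 for the other genes of chromosome 19, 26 for zinc finger genes elsewhere and 14 over all promoters. The median by cluster was lowest in ZNF101 to ZNF254, at 10 CpG, and highest in ZNF554 to ZNF77 and ZNF175 to ZNF331, at 25 CpG.

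Expression of the family was close between the libraries, and a little below even in resistant cells. Members summed to 531.61 FPKM in resistant cells and 565.35 FPKM in parental cells. They took 0.323% of all counts in resistant cells and 0.344% in parental cells. The measure used below is the log2 ratio of counts, resistant over parental, each relative to the library total. Its median over the members was -0.06, with quartiles of -0.26 and 0.10. The same median was -0.07 over 666 other expressed protein-coding genes of chromosome 19, -0.09 over 216 expressed zinc finger genes of other chromosomes and -0.03 over all 11270 expressed protein-coding genes, so the family lay close to each of them. The ratio was above 0 for 36.6% of members, 40.8% of the other genes of chromosome 19, 35.6% of zinc finger genes elsewhere and 46.0% of all protein-coding genes.

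Few members differed by much. Of the 202 members, 2 were at least 2-fold higher in resistant cells, where 1.87% of all expressed protein-coding genes were, and 8 were at least 2-fold lower, where 4.44% were. At 1.5-fold, 8 were higher, against a background of 5.08%, and 17 were lower, against 9.59%. The other 177 members (87.6%) lay within 1.5-fold. By the exact 95% counting interval of the fold (Clopper-Pearson), 43 members lay above equal levels and 83 below, where the background was 33.3% and 40.9%. The remaining 76 intervals included equal levels. Members had median counts of 709 in resistant cells and 723 in parental cells, against 2014 and 2043 over all expressed protein-coding genes. Fewer counts widen the interval. These intervals cover counting error only, and read pairs are not known to be independent molecules.

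The members that passed 2-fold were mostly the weakly expressed ones. Of the 44 members with a mean below 1 FPKM, 8 passed 2-fold in either direction. Of the 56 between 1 and 2 FPKM 1 passed, as did 1 of the 78 between 2 and 5 FPKM. None of the 20 members between 5 and 10 FPKM and none of the 4 above 10 FPKM did. The median absolute log2 ratio was 0.37 in the lowest of these 5 bins and 0.13 in the highest. The pattern was not particular to the family. Of the other expressed protein-coding genes of chromosome 19, 25 of 65 below 1 FPKM passed 2-fold, and 3 of 263 at 10 FPKM or more. Their median absolute log2 ratio was 0.68 in the lowest bin and 0.14 in the highest. Across the 202 members the absolute log2 ratio and the mean count had a Spearman rho of -0.34, a description over genes that share both libraries. Members had a median of 1.96 FPKM in resistant cells and 2.02 FPKM in parental cells, against 6.56 and 7.12 FPKM for the other genes of chromosome 19.

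The most abundant members differed little between the libraries. ZNF146, which encodes a small protein made of fingers without a KRAB domain, stood at 29.62 FPKM in resistant cells and 31.94 FPKM in parental cells, a log2 ratio of -0.10. ZFP36, the CCCH-type protein tristetraprolin that promotes decay of AU-rich mRNAs such as that of TNF, stood at 16.46 FPKM in resistant cells and 19.24 FPKM in parental cells, a log2 ratio of -0.22. ZNF317, a KRAB gene, was on the other side of even, at 11.43 FPKM in resistant cells and 10.25 FPKM in parental cells. Next in level were ZNF700 (resistant 9.99 FPKM, parental 10.16 FPKM), ZNF787 (resistant 9.17 FPKM, parental 10.37 FPKM) and ZNF428 (resistant 9.24 FPKM, parental 9.58 FPKM). All of these lay within 0.25 of even on the log2 scale.

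The members lowest in resistant cells relative to parental cells were thinly read genes from several places on the chromosome. ZNF404 had 29 counts in resistant cells and 102 in parental cells, or 0.17 and 0.61 FPKM, a fold of 0.280 with a counting interval of 0.179 to 0.427. ZNF792 had 121 counts in resistant cells and 311 in parental cells, or 0.40 and 1.06 FPKM, a fold of 0.383 with an interval of 0.308 to 0.475. ZNF222 had 118 counts in resistant cells and 267 in parental cells, or 0.85 and 1.98 FPKM, a log2 ratio of -1.20. Of these 3, ZNF404 and ZNF222 belong to ZNF575 to ZNF296, and ZNF792 lies outside the clusters.

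The other 5 members past 2-fold lower sat close to the threshold. ZNF575 stood at 0.24 FPKM in resistant cells and 0.52 FPKM in parental cells, with a log2 ratio of -1.11. ZNF20 stood at 0.59 FPKM in resistant cells and 1.26 FPKM in parental cells, with a log2 ratio of -1.10. Reads of ZNF20 are uncertain, since 71.4% of the 100-base stretches of its longest transcript also occur in transcripts of other genes. ZNF358 stood at 0.62 FPKM in resistant cells and 1.32 FPKM in parental cells (log2 ratio -1.06). ZNF555 stood at 0.38 FPKM in resistant cells and 0.79 FPKM in parental cells (log2 ratio -1.05). ZNF347 stood at 0.47 FPKM in resistant cells and 0.95 FPKM in parental cells (log2 ratio -1.01). Just short of the threshold was ZNF43, at 1.06 FPKM in resistant cells and 2.10 FPKM in parental cells, with 621 and 1209 counts and a log2 ratio of -0.98; it is read more deeply than any of the 8 that passed.

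Of the 2 members past 2-fold higher, ZNF723 was measured in both libraries. It had 444 counts in resistant cells and 191 in parental cells, or 3.50 and 1.53 FPKM, a fold of 2.29 with a counting interval of 1.93 to 2.73. It overlaps no other row on its strand.

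ZNF497 had 228 counts and 0.86 FPKM in resistant cells, and was listed at 0 counts and 0 FPKM in parental cells. Against a floor of 3 counts in the parental library the fold was 74.9, a value set by that floor. The exact counting interval of the fold began at 60.4 and had no upper limit. Of the 11270 expressed protein-coding rows, 6 had 0 parental counts (0.0532%) and 15 had 0 resistant counts (0.133%). A long noncoding row, AC012313, overlaps ZNF497 on the same strand and had 49 counts in resistant cells and 77 in parental cells. With both rows added, the locus had 277 counts in resistant cells and 77 in parental cells, a log2 ratio of 1.83. On the opposite strand, A1BG-AS1 overlaps it with 252 counts in resistant cells and 282 in parental cells, and other AC012313 rows with 35 counts in resistant cells and 113 in parental cells, and with 14 and 10 counts in the same order. Whether the parental 0 reflects how reads were split between these rows was not tested. ZNF837, a neighbour of ZNF497, stood at 0.58 FPKM in resistant cells and 0.40 FPKM in parental cells.

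**Figure D2:**
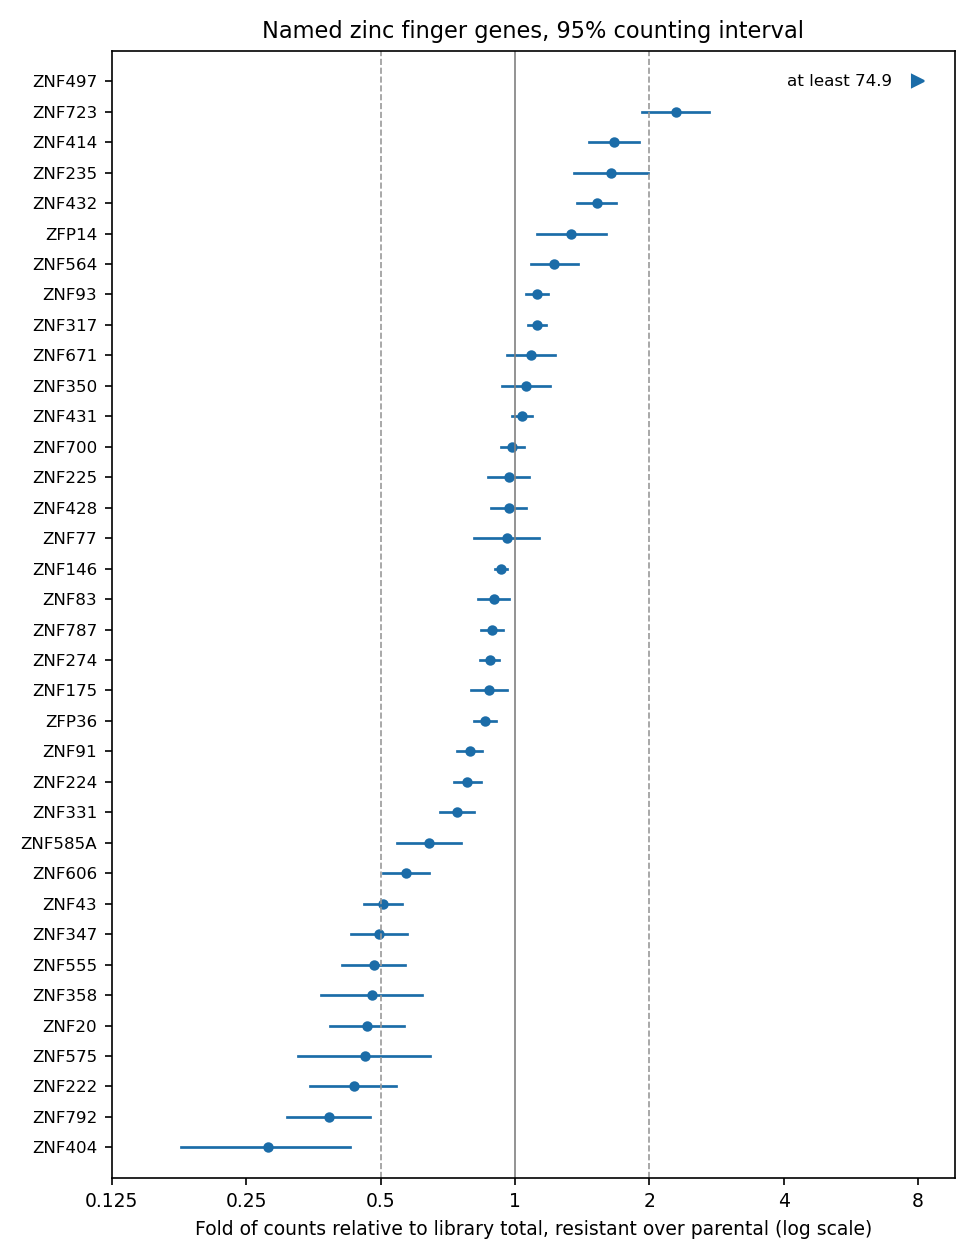
Count fold after division by library totals, resistant over parental (horizontal axis, log scale), for the members named by rule, sorted from high to low, 1 library per group. Points are folds and lines are exact 95% counting intervals; dashed lines mark 2-fold and the arrow marks ZNF497, whose parental count was 0. Most named genes lie between the dashed lines, with 8 below and 2 above.

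Along the chromosome, the 8 cluster medians ran over 0.34 on the log2 scale from -0.27 to 0.07. The interquartile range of the members within a cluster was between 0.22 and 0.46; it describes single genes and is no measure of error for a cluster median. In 7 of the 8 clusters, at least 1 member lay above and at least 1 below equal levels by the counting interval. Both directions are common in general, since 33.3% of all expressed protein-coding genes lay above and 40.9% below. No cluster can be tested against another with 1 library per group.

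ZNF554 to ZNF77 had the lowest median, -0.27. All 5 of its members were below even, where 6091 of 11270 expressed protein-coding genes were. By the counting interval 3 members (60.0%) were below equal levels, against 40.9% of those genes. The cluster summed to 6.56 FPKM in resistant cells and 7.99 FPKM in parental cells. ZNF555 was its lowest member and ZNF77 its highest, at 1.68 FPKM in resistant cells and 1.75 FPKM in parental cells. With 5 members, the median rests on few genes.

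ZNF557 to ZNF846 had the highest median, 0.07. By the counting interval 6 members (46.2%) were above and 4 (30.8%) below equal levels, against 33.3% and 40.9% of all expressed protein-coding genes. ZNF414 was its highest member, at 3.40 FPKM in resistant cells and 2.03 FPKM in parental cells, a log2 ratio of 0.74. ZNF358 was its lowest member, and ZNF121, at 7.45 FPKM in resistant cells and 10.47 FPKM in parental cells, was the most abundant member below even by more than 0.25. ZNF177 stood at 0.72 FPKM in resistant cells and 0.44 FPKM in parental cells, but 95.5% of its 100-base stretches are shared with other genes. A read-through row that joins ZNF559 and ZNF177 had 93 counts in resistant cells and 122 in parental cells. With same-strand rows added, the log2 ratio was 0.15, against 0.72 for ZNF177 alone. Among the 32 other expressed protein-coding genes inside the span of the cluster the median was 0.01.

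ZNF653 to ZNF791 lay to the low side, with a median of -0.14. It summed to 45.42 FPKM in resistant cells and 50.26 FPKM in parental cells. By the counting interval 1 member (5.3%) was above equal levels and 10 (52.6%) were below, against 33.3% and 40.9% of all expressed protein-coding genes. The member above was ZNF564, at 2.43 FPKM in resistant cells and 2.00 FPKM in parental cells, for which 82.7% of the 100-base stretches are shared with other genes. ZNF20 was the lowest member. ZNF653 followed, at 0.53 FPKM in resistant cells and 0.96 FPKM in parental cells, and then ZNF763, at 0.31 FPKM in resistant cells and 0.57 FPKM in parental cells. ZNF763 shares 50.5% of its 100-base stretches with other genes. With same-strand rows added, its log2 ratio was -0.50, against -0.87 alone. The oppositely oriented pair ZNF490 and ZNF791 shares 1 promoter window with 1 copy of the 9-base element, and their log2 ratios were -0.08 and -0.23.

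ZNF101 to ZNF254, the cluster in which every matched promoter held the element, was evenly balanced. Its median was -0.01, and just above 0 under 3 of the alternatives tried. Above even were 13 of 27 members (48.1%), against 46.0% of all expressed protein-coding genes. By the counting interval 7 members (25.9%) were above and 8 (29.6%) below equal levels, against 33.3% and 40.9% of all expressed protein-coding genes. The cluster summed to 72.15 FPKM in resistant cells and 69.86 FPKM in parental cells, the 1 cluster with the higher sum in resistant cells. ZNF723 and ZNF43 mark its extremes. ZNF682 stood at 1.32 FPKM in resistant cells and 0.71 FPKM in parental cells, and ZNF257 at 2.04 FPKM in resistant cells and 1.26 FPKM in parental cells, both above 1.5-fold. ZNF93, which silences LINE-1 elements, stood at 7.23 FPKM in resistant cells and 6.47 FPKM in parental cells (log2 ratio 0.16). ZNF91, which silences SVA elements, stood at 2.41 FPKM in resistant cells and 3.05 FPKM in parental cells (log2 ratio -0.33). These transposon-silencing relatives thus lay on opposite sides of even, each with a counting interval that excluded equal levels. ZNF431 stood at 3.03 FPKM in resistant cells and 2.93 FPKM in parental cells, and its interval included equal levels.

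Over all members with a matched promoter, those with the 9-base element had ratios and levels close to those without it. The element was in 42 of 46 promoters of 3 clusters and in 0 of 122 of the other 5. The comparison is therefore nearly one of those 3 clusters against the rest. The 42 members with it had a median log2 ratio of -0.07 and a median of 2.26 FPKM in resistant cells and 2.08 FPKM in parental cells. The 137 members with a promoter but without it had a median log2 ratio of -0.06 and a median of 1.87 FPKM in resistant cells and 1.96 FPKM in parental cells. The KRAB entry was carried by 36 of the 42 and by 100 of the 137. In each group ratios ranged on both sides of even. They ran from -1.10 to 1.20 with the element and from -1.84 up to the floor-based value of ZNF497 without it.

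On the long arm, ZNF565 to ZNF573 had a median of -0.07 and the most rows below the threshold, since 11 of its 30 zinc finger rows were under 0.5 FPKM. Most of these 11 were read at a low level, such as ZNF565 with 120 counts in resistant cells and 115 in parental cells. It held the most abundant member, ZNF146, and summed to 57.78 FPKM in resistant cells and 61.11 FPKM in parental cells. ZFP14 was its highest member, at 0.56 FPKM in resistant cells and 0.42 FPKM in parental cells, and ZNF585A its lowest, at 0.33 FPKM in resistant cells and 0.52 FPKM in parental cells. By the counting interval 7 members (36.8%) were above and 6 (31.6%) below equal levels, against 33.3% and 40.9% of all expressed protein-coding genes.

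ZNF575 to ZNF296 had a median of -0.22, with 5 of 20 members above even. The 16 other expressed protein-coding genes inside its span had a median of -0.18. The cluster held the lowest member of all, ZNF404, and 2 others past 2-fold, ZNF222 and ZNF575. Past 2-fold lower were thus 3 of its 20 members (15.0%), against 4.44% of all expressed protein-coding genes. ZNF235 was its highest, at 0.72 FPKM in resistant cells and 0.44 FPKM in parental cells. ZNF224, a repressor that also works with the WT1 protein, stood at 3.00 FPKM in resistant cells and 3.85 FPKM in parental cells (log2 ratio -0.36). Its neighbour ZNF225 was nearly even, at 1.46 FPKM in resistant cells and 1.51 FPKM in parental cells.

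ZNF175 to ZNF331 had a median of -0.06. By the counting interval 5 members (15.2%) were above and 15 (45.5%) below equal levels, against 33.3% and 40.9% of all expressed protein-coding genes. ZNF432 was its highest member, at 2.39 FPKM in resistant cells and 1.57 FPKM in parental cells, and ZNF347 its lowest. ZNF331, an imprinted gene, stood at 1.52 FPKM in resistant cells and 2.06 FPKM in parental cells (log2 ratio -0.43). ZNF175, reported to repress HIV-1 in macrophages, stood at 1.74 FPKM in resistant cells and 1.99 FPKM in parental cells (log2 ratio -0.19). ZNF350, a KRAB protein that binds BRCA1, stood at 1.73 FPKM in resistant cells and 1.63 FPKM in parental cells, and its interval included equal levels. ZNF83 stood at 2.08 FPKM in resistant cells and 2.33 FPKM in parental cells (log2 ratio -0.16).

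ZNF628 to ZNF446, the largest cluster, also had a median of -0.06 and summed to 129.91 FPKM in resistant cells and 141.34 FPKM in parental cells. By the counting interval 9 members (17.0%) were above and 21 (39.6%) below equal levels, against 33.3% and 40.9% of all expressed protein-coding genes. The 11 other expressed protein-coding genes inside its span had a median of -0.39. ZNF497 was its highest member and ZNF606 its lowest, at 0.84 FPKM in resistant cells and 1.48 FPKM in parental cells (log2 ratio -0.81). ZNF274, which brings SETDB1 to the 3' ends of zinc finger genes themselves, stood at 5.74 FPKM in resistant cells and 6.56 FPKM in parental cells (log2 ratio -0.19). ZNF671, often methylated in tumours, stood at 2.31 FPKM in resistant cells and 2.13 FPKM in parental cells, and its interval included equal levels.

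**Figure D3:**
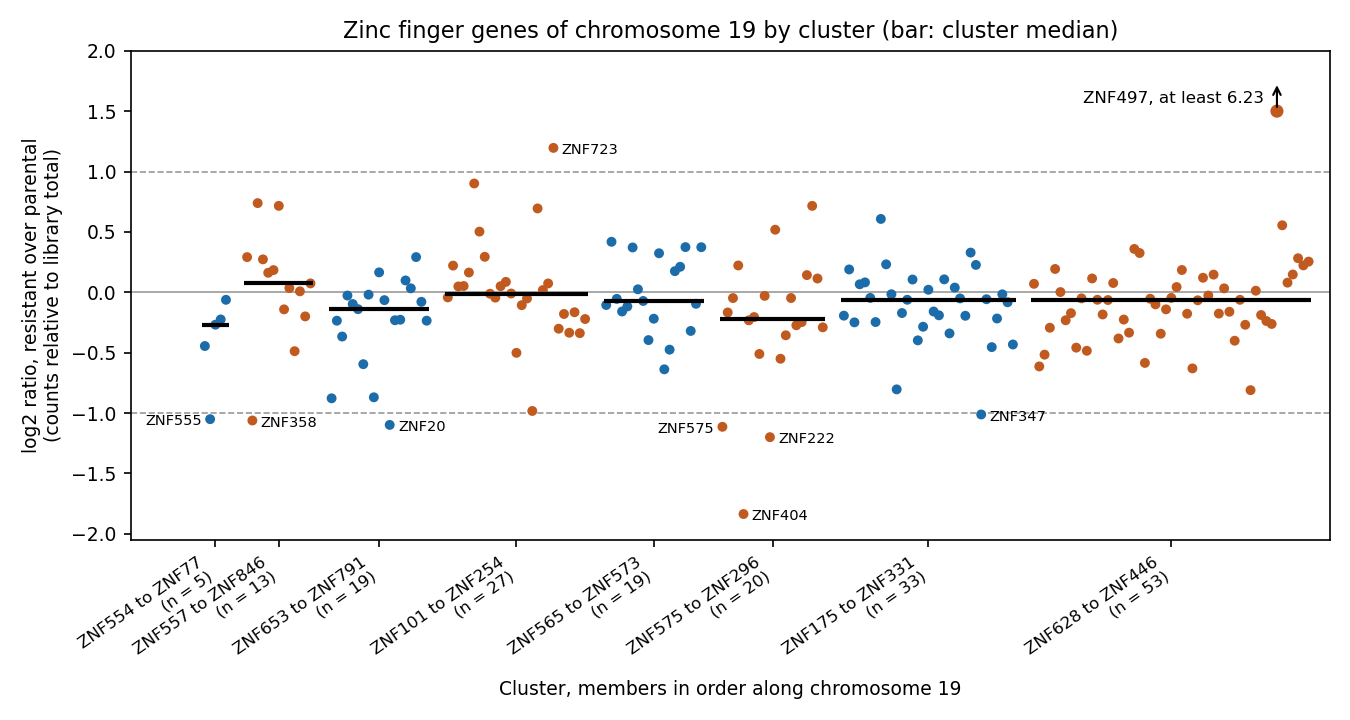
Log2 ratio of counts relative to the library total, resistant over parental (vertical axis), for the 189 members of the 8 clusters, 1 point per gene in order along chromosome 19, 1 library per group. Bars are cluster medians, between -0.27 and 0.07, and dashed lines mark 2-fold; ZNF497 is drawn at the top with its lower bound. Most points lie between the dashed lines, and those past them are named.

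**Figure D4:**
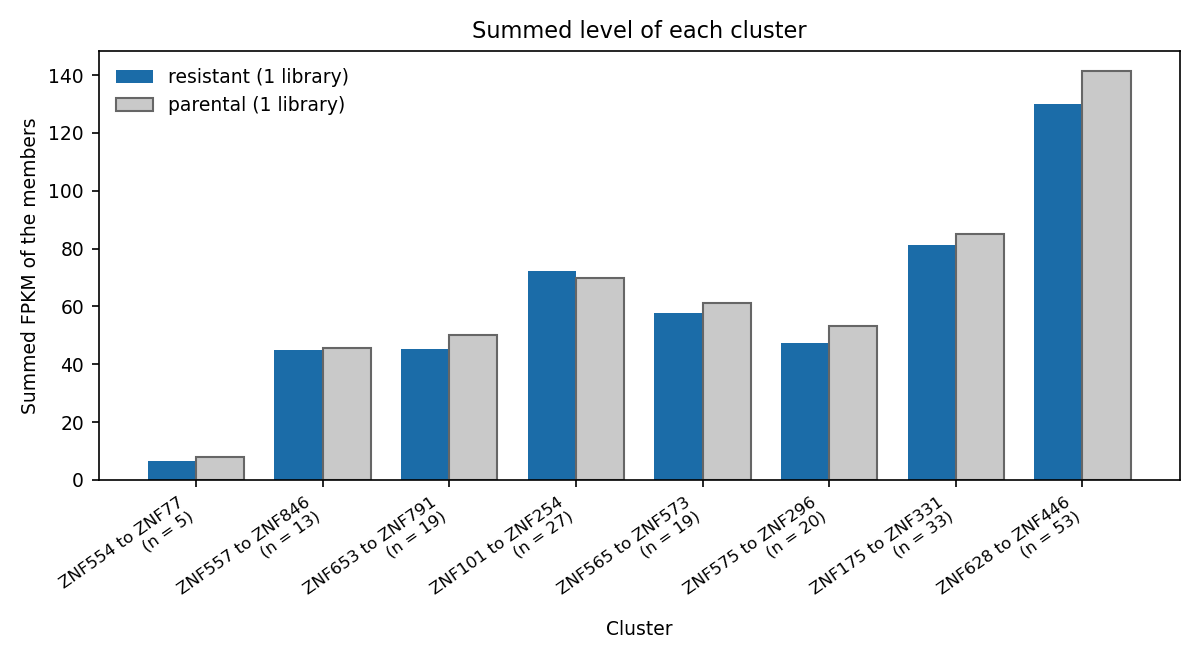
Summed FPKM of the members of each cluster (vertical axis), with resistant cells on the left and parental cells on the right of each pair, 1 library each. ZNF101 to ZNF254 is the 1 pair with the taller bar in resistant cells, at 72.15 FPKM in resistant cells and 69.86 FPKM in parental cells.

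Over the 187 pairs of neighbouring members, the log2 ratios had a Pearson r of 0.04 and a Spearman rho of 0.09, a description over pairs that share genes and libraries. In 115 pairs both log2 ratios lay on the same side of even. In the other 72 the signs were opposite, and in 25 of these both counting intervals excluded equal levels. The pairs named here are among the widest apart and were picked after their values were seen. ZNF222 was at -1.20 and ZNF223 at 0.52, and ZNF284, the gene after them, was at -0.55. ZNF223 shares 61.1% of its 100-base stretches with other genes. ZNF404 at -1.84 follows ZNF283 at 0.22, and ZNF43 at -0.98 precedes ZNF257 at 0.69. ZNF614 at -0.25 and ZNF432 at 0.61 lie 1.14 kb apart.

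The ratio had weak rank correlations with features of the genes, given as a description. Its Spearman rho over members was 0.04 with mean FPKM, 0.01 with promoter CpG, -0.03 with transcript length and -0.03 with the shared share of 100-base stretches. The 155 members with the KRAB entry had a median of -0.05, with 0 past 2-fold higher and 6 (3.87%) lower. The 47 without it had a median of -0.13, with 2 (4.26%) past 2-fold higher, ZNF497 among them, and 2 (4.26%) lower. Some of these 47 may still encode the domain. Over all expressed protein-coding genes 1.87% were past 2-fold higher and 4.44% lower.

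Reads could be misplaced for some members. At least 50% of the 100-base stretches were shared with other genes in 9 members, and 122 members shared none. ZNF320 and ZNF468 shared the most, at 99.5% and 99.1%. On the same strand 70 members overlap another row, and 86 overlap a row on the opposite strand. The library preparation keeps the strand, but the strand setting of the counting is not given in the sources used here.

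The genes through which KRAB proteins act were all expressed and also close to even. Of 32 such genes, 9 had a log2 ratio above 0 and 23 below, with a median of -0.08; 46.0% of all expressed protein-coding genes were above 0. None was past 2-fold, where the background was 1.87% higher and 4.44% lower. By the counting interval 6 were above and 19 (59.4%) below equal levels, against a background of 33.3% and 40.9%. The listed genes were read more deeply, with median counts of 7391 in resistant cells and 7581 in parental cells. Over all expressed protein-coding genes these were 2014 and 2043. More counts narrow the interval, so the shares are not directly comparable. TRIM28, the corepressor itself, stood at 89.16 FPKM in resistant cells and 101.52 FPKM in parental cells (log2 ratio -0.18). SETDB1, which methylates histone H3 at lysine 9, stood at 20.08 FPKM in resistant cells and 20.46 FPKM in parental cells, and its interval included equal levels. Of the heterochromatin proteins that read this mark, CBX5 stood at 27.76 FPKM in resistant cells and 34.01 FPKM in parental cells (log2 ratio -0.29), and CBX3 and CBX1 were nearer to even.

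The HUSH complex, which works with SETDB1, was mixed. PPHLN1, its periphilin subunit, was the 1 gene of the list past 1.5-fold, at 12.73 FPKM in resistant cells and 7.48 FPKM in parental cells (log2 ratio 0.77). MPHOSPH8 stood at 10.16 FPKM in resistant cells and 8.31 FPKM in parental cells (0.29), and TASOR at 12.21 FPKM in resistant cells and 14.83 FPKM in parental cells (-0.28). The partner enzymes that set the same mark in euchromatin were on opposite sides of even. EHMT2 stood at 12.58 FPKM in resistant cells and 18.66 FPKM in parental cells (log2 ratio -0.56), the lowest of the list, while EHMT1 stood at 5.88 FPKM in resistant cells and 4.42 FPKM in parental cells (log2 ratio 0.42).

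Of the chromatin assembly and maintenance genes, UHRF1, which guides DNA methylation after replication, stood at 30.82 FPKM in resistant cells and 40.86 FPKM in parental cells (log2 ratio -0.40). CHAF1B, a subunit of the CAF-1 histone chaperone, stood at 8.20 FPKM in resistant cells and 10.45 FPKM in parental cells (log2 ratio -0.35). CHD3, a remodeller of the NuRD complex, stood at 12.12 FPKM in resistant cells and 15.68 FPKM in parental cells (log2 ratio -0.37). The remaining listed genes, DAXX, DNMT1, CHAF1A, MTA2, ASF1B, RESF1, MORC2, SMARCAD1, MTA1, SUV39H1, HDAC2, ATF7IP, CHD4, HDAC1, ASF1A, ATRX, TASOR2, SUV39H2 and ATF7IP2, lay between -0.21 and 0.17.

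**Figure D5:**
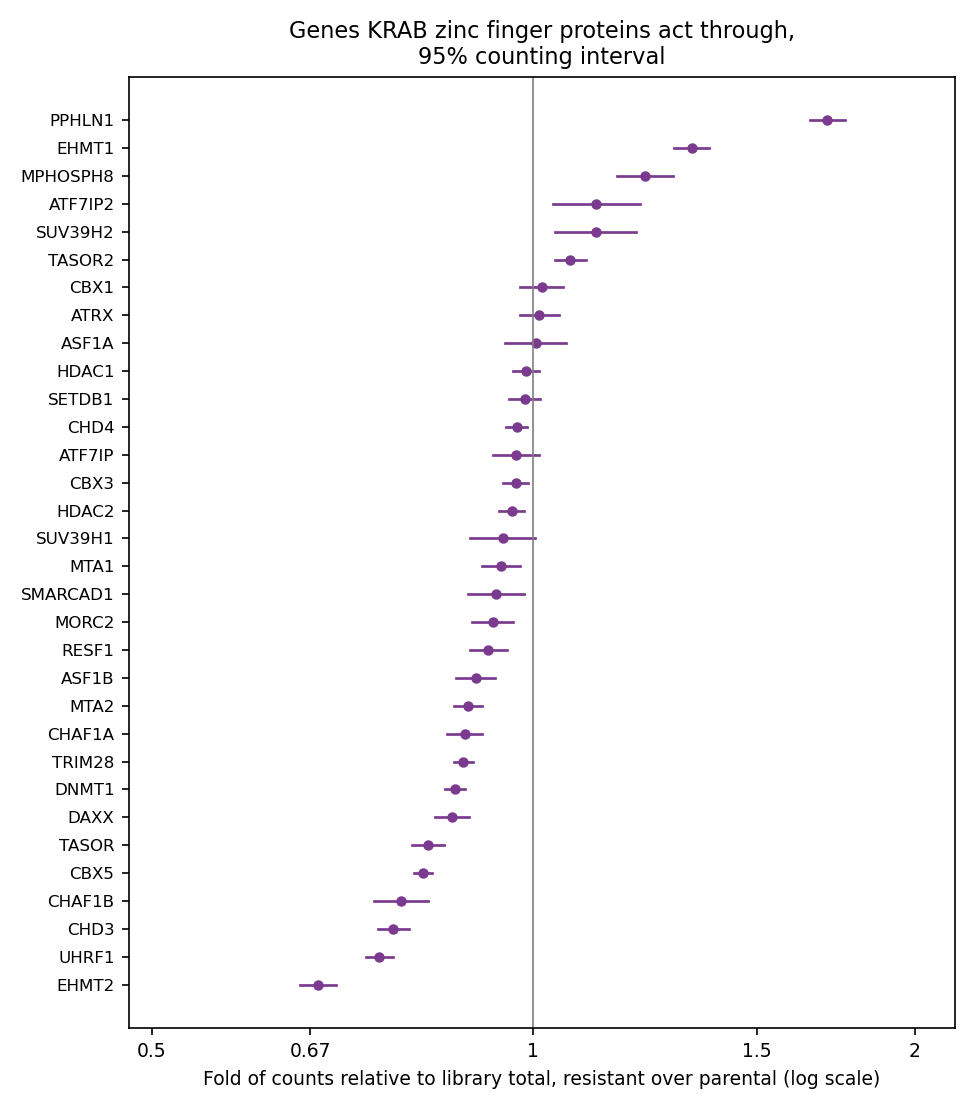
Count fold after division by library totals, resistant over parental (horizontal axis, log scale), for the 32 genes through which KRAB zinc finger proteins act, 1 library per group. Points are folds and lines are exact 95% counting intervals. PPHLN1 lies highest and EHMT2 lowest, and none reaches 2-fold.

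The threshold that chose the members passes through a continuous range of levels. Just inside it were ZNF726 at 0.41 FPKM in resistant cells and 0.51 FPKM in parental cells, ZNF585A and ZNF575, both with 0.52 FPKM in parental cells. Just outside were ZNF699 at 0.28 FPKM in resistant cells and 0.49 FPKM in parental cells, ZNF573 (resistant 0.43 FPKM, parental 0.49 FPKM) and ZNF880 (resistant 0.42 FPKM, parental 0.48 FPKM). Among the 37 rows below the threshold, ZNF208 and ZNF667 had no count in either library, and 8 rows had at most 10 counts over both. ZNF382 stood at 0.23 FPKM in resistant cells and 0.37 FPKM in parental cells, and ZNF154 at 0.19 FPKM in each library.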

How the data were processed

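Poly(A) RNA of 1 resistant and 1 parental library was analysed. The authors deposited, for each library, a whole-number read count per gene, not normalised, and an FPKM value, which is scaled by transcript length and sequencing depth. The submitters' processing notes list StringTie 1.3.4d, HISAT2 2.0.4 and cutadapt 1.9, as well as edgeR and DESeq2, and the build GRCh38. How reads with several matches were counted, with which strand setting and on which annotation release, is not given in the sources used here. Over 10815 genes with at least 100 counts, FPKM and count log2 ratios differed by a median of -0.0038 (SD 0.0047).

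Here the counts were divided by library totals, without a pseudocount. Folds carry exact 95% Clopper-Pearson intervals, and zeros a floor of 3 counts. With 1 library per group no test was run; a size rule of 2-fold was used. Reads of near-identical genes were judged by shared 100-base stretches among GENCODE 29 transcripts. The interval code was tested on simulated data. Python 3.11.15, pandas 2.3.3 and scipy 1.17.1 were used.

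The members and lists were chosen with earlier results of these data known. Named were members past 2-fold, the 6 most abundant, the highest and lowest of each cluster, the 3 nearest the threshold on each side, a list of studied genes and the corepressor list. Further members named beside a cluster, an overlap or a neighbour pair, and the promoter words, were picked with their values in view. The alternatives tried were 2 FPKM pseudocounts (1 and 0.1), median-ratio scaling, a minimum of 1 FPKM, leaving out overlapping members, a 1.5-fold rule and other cluster gaps.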

Additional observations from a re-analysis of the deposited data

How the results depend on the processing

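The number of members past 2-fold depended on the scale. On log2(FPKM + 1), 0 members were higher and 0 lower, since that pseudocount exceeds the level of many members. On log2(FPKM + 0.1), 3 were lower. With a minimum of 1 FPKM, 1 was higher and 4 were lower. Without members that overlap another row on the same strand, 1 was higher and 4 were lower, and 52 in place of 83 lay below equal levels by the counting interval, with fewer members counted. At 1.5-fold, 8 were higher and 17 lower. The median log2 ratio of the members was -0.0420 on log2(FPKM + 1) and -0.0363 with median-ratio scaling, which set the median of all protein-coding genes to -0.0003. Values near even changed sign. The median of ZNF101 to ZNF254, -0.0099, was 0.0158 with median-ratio scaling and 0.0185 both with a minimum of 1 FPKM and without overlapping members. ZNF700, at -0.0193, was at 0.0064 with median-ratio scaling. A gap of 2 Mb joined ZNF557 to ZNF846 with ZNF653 to ZNF791 into 1 run of 32 members with a median of -0.0718, against 0.0737 for the first alone. No member past 2-fold changed direction. Counts limit single low members such as ZNF404. No paired analysis was possible because each group has 1 library.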
